A study of Mus musculus with 7 samples.

Results

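Oxidative phosphorylation genes encode the machinery with which mitochondria turn the energy of electrons from food into ATP. Here they were taken as every gene whose array annotation symbol starts with Nduf, Uqcr, Cox4, Cox5, Cox6, Cox7, Cox8 or Atp5, together with Sdha, Sdhb, Sdhc, Sdhd, Cyc1 and Cycs, without pseudogenes. The rule found 89 genes of the 22180 that were measured, 81 of them for subunits or cytochrome c and 8 for assembly factors of complex I. By complex they comprised 32 subunits of complex I, 4 of complex II, 8 of complex III, 19 of complex IV and 17 of complex V, besides cytochrome c. Ndufa4 and Ndufa4l2 were counted with complex IV.

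RNA was measured on 7 single-colour Affymetrix arrays of mouse cells of strain 129. The groups were Nanog KO iPSC (2 arrays), WT iPSC (2 arrays), WT ESC (1 array), Nanog KO MEF (1 array) and WT MEF (1 array). Induced pluripotent stem cells (iPSC) are somatic cells brought to a state like that of embryonic stem cells (ESC), and MEF are fibroblasts from mouse embryos. The series sets cells that lack Nanog, a transcription factor that pluripotent cells express, against WT pluripotent cells. The labels call the iPSC replicates biological without saying whether they are separate lines. Growth media are given (ESC, 2i/LIF or MEF medium) but not matched to samples, so a difference of medium and one of genotype cannot be told apart. The p-values therefore measure the spread between these samples.

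In the inner mitochondrial membrane, complex I (NADH dehydrogenase) and complex II (succinate dehydrogenase) pass electrons to ubiquinone, complex III passes them on to cytochrome c, and complex IV (cytochrome c oxidase) passes them to oxygen. Complexes I, III and IV pump protons, and complex V (ATP synthase) makes ATP from the gradient. Several nuclear subunits of complex IV exist as isoforms from different genes, of which some are known from muscle or testis. Mouse ESC in culture are known to respire, and fibroblasts that are reprogrammed shift the balance between glycolysis and respiration.

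Nanog stood at a log2 intensity of 7.50 and 7.44 in KO iPSC, against 12.84 and 12.76 in WT iPSC and 12.73 in WT ESC, and at 6.42 in KO MEF against 6.53 in WT MEF. The background of an array was taken as the 95th percentile of its 1390 olfactory and vomeronasal receptor genes, which lay between 6.30 and 6.50. The 10 pluripotency markers had a median of 10.90 and 10.93 in KO iPSC, 11.27 and 11.18 in WT iPSC, 10.80 in WT ESC, 6.03 in KO MEF and 5.96 in WT MEF. On the pluripotent arrays Dppa5a alone among them lay near background. The 11 measured fibroblast markers of 12 had a median of 6.65 and 6.53 in KO iPSC, 8.22 and 6.54 in WT iPSC, 7.80 in WT ESC, 11.97 in KO MEF and 10.68 in WT MEF. WT iPSC replicate 1 and the WT ESC array were thus higher in fibroblast markers than the other pluripotent arrays, and their part in the results was not tested. Among the fibroblast genes Lum stood at 10.60 in KO MEF against 5.09 in WT MEF, and Dcn at 12.19 against 7.99. In such bulk RNA, fewer cells of a type and less RNA per cell cannot be told apart.

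Of the 89 oxidative phosphorylation genes, 82 lay above background on every array. The complex I subunit gene Ndufs5 and the complex IV isoform genes Cox7b2 and Cox8c lay below it on every array. For Ndufs5 this holds for its single-symbol probe set only. A probe set that it shares with the pseudogene Ndufs5-ps stayed out of the tests and lay above background on every array, between 7.11 and 7.69. The median log2 intensity over the 89 genes was 9.43 and 9.37 in KO iPSC, 9.58 and 9.60 in WT iPSC, 9.53 in WT ESC, 9.10 in KO MEF and 9.09 in WT MEF. Over all genes the arrays had medians between 7.05 and 7.13, with 7.06 and 7.05 in KO iPSC, 7.13 and 7.08 in WT iPSC and 7.10 in WT ESC. The median over the 89 genes was thus lowest in MEF of both genotypes. Both KO iPSC arrays lay below the WT pluripotent ones over the 89 genes, and also over all genes. The KO iPSC pair differed in none of the 89 genes by more than 2-fold, and neither did the WT iPSC pair. The SD of the replicate differences over the genes was 0.11 for the KO pair and 0.18 for the WT pair.

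The comparison named by the series is that of KO iPSC with the 3 WT pluripotent arrays (2 WT iPSC and 1 WT ESC). It moved 1 isoform gene of complex IV strongly and left most of the machinery within small differences. Cox7a1, the isoform of complex IV subunit VIIa known from heart and skeletal muscle, was 3.36-fold lower in KO iPSC. The complex I genes Ndufb11, Ndufa2 and Ndufv2 also fell, and Ndufa4 and Ndufa5 rose, each by 0.60 or less on the log2 scale. In limma, with a Benjamini-Hochberg adjusted p under 0.05 over all genes as the threshold, 2 of 89 genes were higher (2.25%, against 6.89% of all genes tested) and 4 were lower (4.49%, against 8.81%). At an unadjusted p under 0.05 the counts were 11 higher and 14 lower of 89, where 6992 of all 22180 genes passed in either direction. Leaving out WT iPSC replicate 1 gave 1 higher and 6 lower, leaving out the WT ESC array 0 and 4, and leaving out WT iPSC replicate 2 gave 0 and 2. With either KO iPSC array left out, 0 were higher and 1 lower. The median difference was -0.06 over the 89 genes and 0.03 over all genes. The genes more than 1.5-fold apart were 3 of the 89 (3.37%), namely Cox7a1, Ndufb11 and the uncalled Ndufa4l2, against 13.53% of all genes. The sign of the small median depended on the scaling, since it was -0.0039 after median centring and 0.0051 after quantile normalization.

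**Figure D1:**
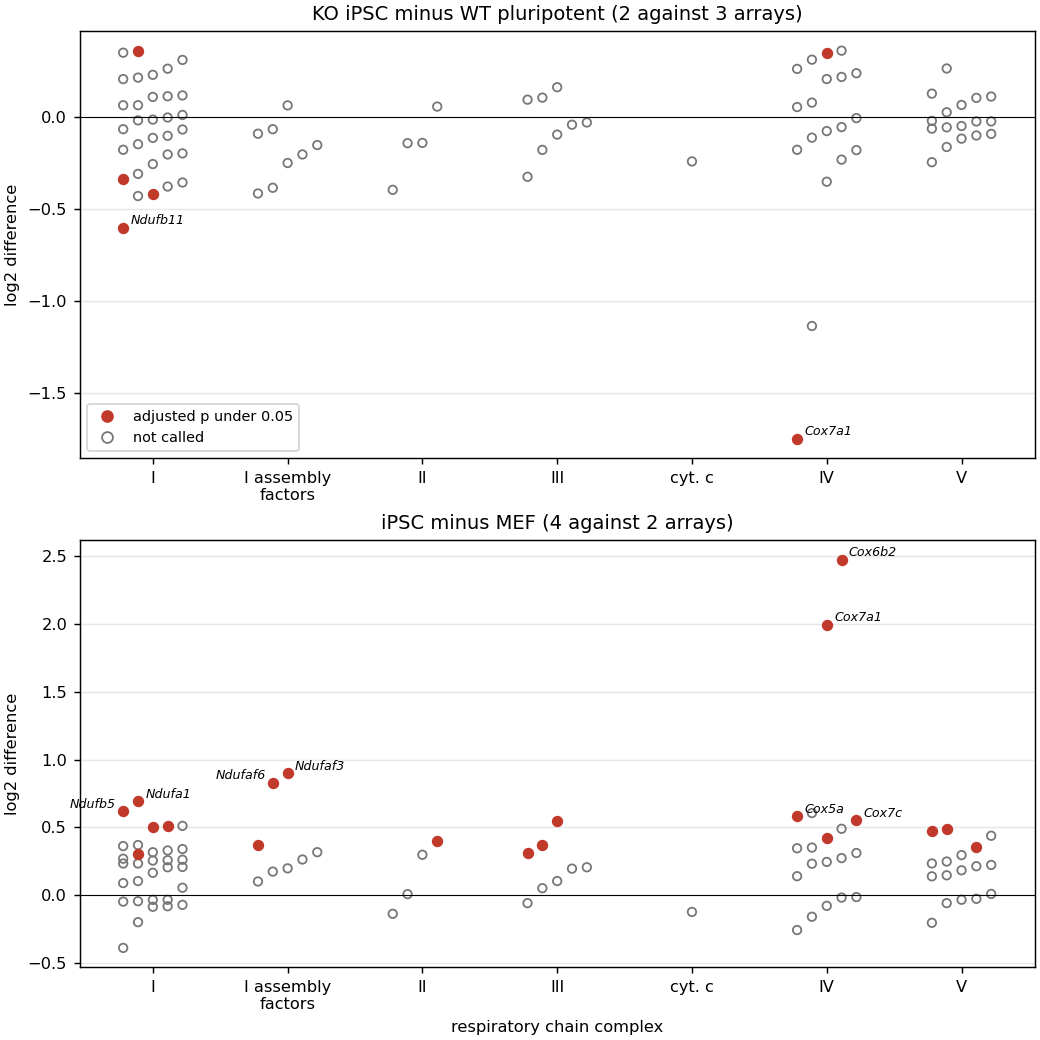
Log2 difference of each of the 89 genes, grouped by complex, for KO iPSC minus WT pluripotent cells (top, 2 against 3 arrays) and iPSC minus MEF (bottom, 4 against 2 arrays). Filled points passed an adjusted p of 0.05. In the top panel Cox7a1 lies alone at -1.75, and in the bottom panel Cox6b2 (2.48) and Cox7a1 (1.99) lie above all other members.

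Complex IV held the largest difference. Cox7a1 stood at 7.78 and 7.84 in KO iPSC, against 9.58 and 9.58 in WT iPSC and 9.52 in WT ESC, and at 6.69 in KO MEF against 6.72 in WT MEF. Every KO iPSC array lay below every WT pluripotent array and above both MEF arrays, and the WT pluripotent values nearly coincided. The fibroblast marker medians of those 3 WT arrays ran from 6.54 to 8.22, and their part in the Cox7a1 difference was not tested. The difference was -1.75 (SE 0.08, adjusted p = 0.000419 in limma). Against WT iPSC alone it was -1.77 (SE 0.08, adjusted p = 0.00117). It passed in all 12 alternative settings of the first comparison (-1.78 to -1.65) and in the settings of the second that could change it (-1.80 to -1.68). Leaving out the WT ESC array or a MEF array cannot change the second, since groups of 1 array add nothing to its spread. The 8 muscle markers, a tissue where the gene is known to be active, had a median of 7.67 and 7.64 in KO iPSC, 7.81 and 7.60 in WT iPSC and 7.48 in WT ESC. Between KO iPSC and WT pluripotent cells 5 of the 8 differences were above 0, the largest of them at 0.13. Against WT iPSC alone 2 of the 8 were above 0. Myh1, Myh3 and Myl1 lay below background on every array. The 2 genes more than 1.5-fold apart from WT pluripotent cells, Des and Acta1, were both lower in KO iPSC. Of the 8, 1 was called, as lower, where 8.81% of all genes were lower. That gene was Des, the intermediate filament gene desmin of muscle, which was named after its values were seen and stood at 7.68 and 7.74 in KO iPSC, against 8.93 and 8.78 in WT iPSC and 9.33 in WT ESC.

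The other 2 genes of the subunit VIIa family did not pass. Cox7a2, the isoform expressed in most tissues, stood at 11.41 and 11.45 in KO iPSC, against 11.29 and 11.41 in WT iPSC and 11.35 in WT ESC (difference 0.08, SE 0.08, adjusted p = 0.551). Its KO and WT arrays overlapped. Cox7a2l, a related gene known for joining complexes III and IV, stood at 8.18 and 8.23 in KO iPSC, against 8.36 and 8.39 in WT iPSC and 8.40 in WT ESC (-0.18, SE 0.08, adjusted p = 0.172). Its arrays did not overlap, but the difference missed the threshold.

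Ndufa4 and Ndufa4l2 form another pair. Ndufa4, now assigned to complex IV, stood at 10.34 and 10.30 in KO iPSC, against 9.97 and 10.05 in WT iPSC and 9.89 in WT ESC. It was higher in KO iPSC by 0.35 (SE 0.09, adjusted p = 0.0463 in limma) without overlap. Ndufa4l2, its homologue known as a target of hypoxia-inducible factor, stood at 6.94 and 7.02 in KO iPSC, against 7.09 and 7.99 in WT iPSC and 9.26 in WT ESC. The KO arrays were the lowest of the 5, but the WT arrays ranged over more than 2 log2 units, and the difference of -1.13 had an SE of 0.59 (adjusted p = 0.253).

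The remaining isoform families showed no called difference between KO iPSC and WT pluripotent cells. Cox6b1, the isoform of subunit VIb found in most tissues, stood at 11.02 and 10.84 in KO iPSC, against 10.46 and 10.68 in WT iPSC and 10.56 in WT ESC (0.36, SE 0.11, adjusted p = 0.0753). Cox6b2, the isoform known from testis, stood at 9.80 and 9.99 in KO iPSC, against 10.17 and 10.31 in WT iPSC and 9.53 in WT ESC (-0.11, SE 0.24, adjusted p = 0.794). Cox4i1 and Cox4i2, the common and the oxygen-sensitive isoform of subunit IV, differed by 0.31 (SE 0.11) and -0.23 (SE 0.16). Cox6a1 and the heart and muscle isoform gene Cox6a2 differed by 0.22 (SE 0.08) and 0.21 (SE 0.13). Cox5a and Cox5b, which encode different subunits and are not isoforms of each other, differed by -0.18 (SE 0.14) and 0.06 (SE 0.15). Cox8a differed by 0.00 (SE 0.08), and Cox8b, which was above background on 1 array, by 0.24 (SE 0.16). Cox7b, which is X-linked, differed by -0.08 (SE 0.10).

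**Figure D2:**
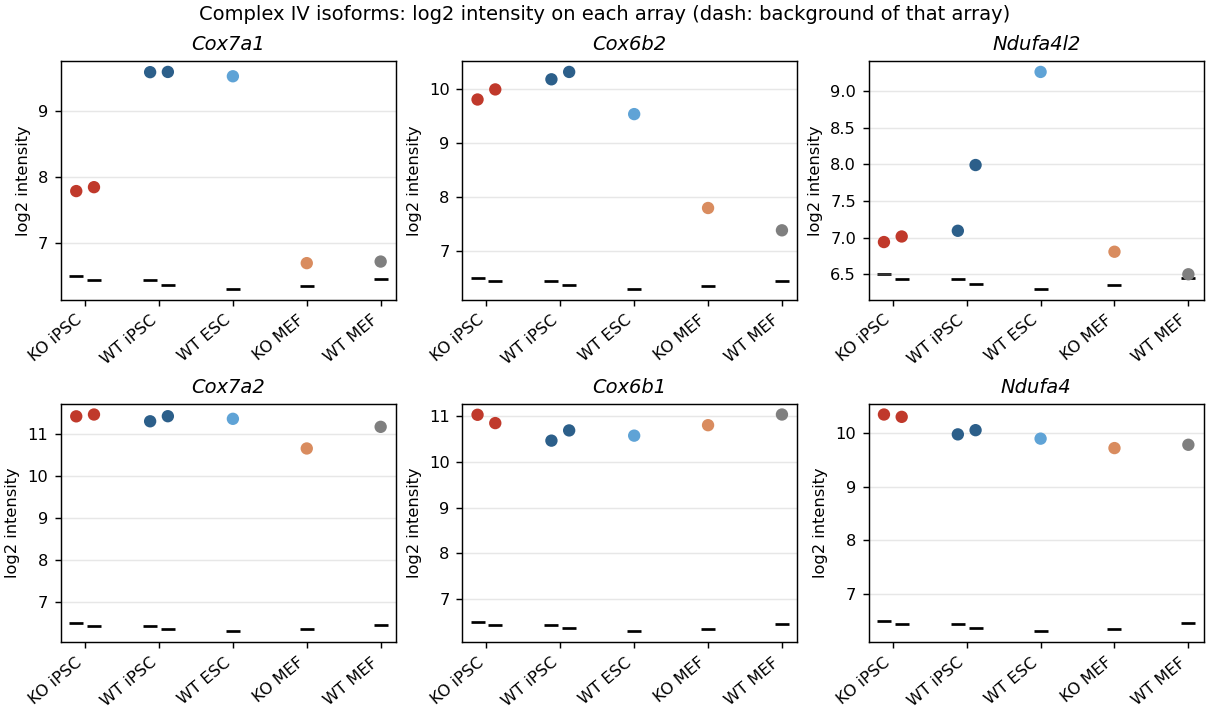
Log2 intensity on each array for 6 complex IV genes, with groups from left to right KO iPSC, WT iPSC, WT ESC, KO MEF and WT MEF. Each point is 1 array, the dash marks that array's background, and the axes differ between panels and do not start at 0. Cox7a1 lies between 7.78 and 7.84 in KO iPSC, below the WT pluripotent arrays and above both MEF arrays, while Cox7a2 overlaps between genotypes in the pluripotent cells.

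Promoters were read from RefSeq (GRCm38.p6) for Cox7a1, Cox6b2 and Ndufb11, which are described in detail here, and for Cox7a2 and Cox6b1, the paired isoforms. Ndufa8 was added after the motif search as an example with NRF1 matches. Each is the 250 bases before the annotated start, 5′ to 3′ on the gene's strand, at chr7:30183921-30184170 (plus) for Cox7a1, chr9:79759854-79760103 (minus) for Cox7a2, chr7:4753095-4753344 (minus) for Cox6b2, chr7:30626115-30626364 (minus) for Cox6b1, chrX:20617620-20617869 (minus) for Ndufb11 and chr2:36049339-36049588 (minus) for Ndufa8. Capitals mark matches, on either strand, to motifs of factors known at respiratory chain genes: GCGCANGCG for NRF1, CCGGAAG for ETS factors such as GABPA, AAGATGGC for YY1 and CCAAT for the CCAAT box.
Cox7a1: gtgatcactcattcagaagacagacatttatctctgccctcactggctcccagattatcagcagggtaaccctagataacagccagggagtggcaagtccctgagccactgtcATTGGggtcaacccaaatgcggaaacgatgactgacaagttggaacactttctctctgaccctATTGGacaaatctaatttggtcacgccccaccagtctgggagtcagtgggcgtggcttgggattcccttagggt
Cox7a2: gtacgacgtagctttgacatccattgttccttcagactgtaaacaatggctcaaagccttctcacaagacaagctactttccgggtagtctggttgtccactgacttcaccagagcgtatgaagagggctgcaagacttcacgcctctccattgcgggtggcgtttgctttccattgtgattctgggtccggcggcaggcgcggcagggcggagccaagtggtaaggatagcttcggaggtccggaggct
Cox6b2: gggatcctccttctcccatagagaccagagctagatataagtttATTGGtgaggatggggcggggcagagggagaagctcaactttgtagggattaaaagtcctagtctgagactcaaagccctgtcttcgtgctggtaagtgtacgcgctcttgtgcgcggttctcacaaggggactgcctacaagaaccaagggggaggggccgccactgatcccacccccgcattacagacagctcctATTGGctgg
Cox6b1: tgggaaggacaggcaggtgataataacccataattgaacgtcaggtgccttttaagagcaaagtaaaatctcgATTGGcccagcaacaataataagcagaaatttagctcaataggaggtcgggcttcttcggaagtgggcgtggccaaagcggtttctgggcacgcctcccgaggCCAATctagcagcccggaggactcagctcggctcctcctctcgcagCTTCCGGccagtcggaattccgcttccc
Ndufb11: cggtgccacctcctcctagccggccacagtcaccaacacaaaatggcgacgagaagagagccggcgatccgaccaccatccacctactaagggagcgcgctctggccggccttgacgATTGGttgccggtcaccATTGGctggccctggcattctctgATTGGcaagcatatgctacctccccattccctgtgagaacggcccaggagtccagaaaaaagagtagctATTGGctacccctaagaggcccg
Ndufa8: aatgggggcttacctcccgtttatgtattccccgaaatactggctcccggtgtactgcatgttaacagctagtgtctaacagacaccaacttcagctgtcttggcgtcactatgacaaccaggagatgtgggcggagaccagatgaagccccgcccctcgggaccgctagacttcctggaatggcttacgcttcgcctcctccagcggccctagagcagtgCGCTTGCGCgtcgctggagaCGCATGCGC
Cox7a1 and Cox6b2 held 2 CCAAT boxes each, and Cox6b1 held 2 CCAAT boxes and 1 ETS motif. Ndufb11 held 4 CCAAT boxes, Ndufa8 2 NRF1 motifs, and Cox7a2 no match to any of the 4. Of the 89 genes, 73 had an entry, with 78 windows. The NRF1 motif was present in 19.2% of these windows, against 5.16% of all 32851 promoter windows of the same length. For the ETS motif the shares were 17.9% and 6.91%, for YY1 1.28% and 1.56%, and for the CCAAT box 41.0% and 33.9%. A match describes letters only and shows no binding.

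The few called complex I genes lay in both directions. Of its 32 subunit genes, 1 was higher and 3 were lower in KO iPSC than in WT pluripotent cells, with a median of -0.04. Over all genes 6.89% were higher and 8.81% lower. Ndufb11, the gene of an accessory subunit of the membrane arm, stood at 6.89 and 6.91 in KO iPSC, against 7.63 and 7.63 in WT iPSC and 7.24 in WT ESC, and fell by 0.60 on the log2 scale (SE 0.14, adjusted p = 0.0406 in limma). It lay close above background. The KO arrays lay below all WT pluripotent arrays and near the MEF arrays (7.05 in KO MEF, 6.97 in WT MEF). The call was lost without any 1 of the 4 iPSC arrays, with the KO iPSC arrays averaged and after median centring (adjusted p up to 0.239 in limma).

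Ndufb11 is X-linked, as are Ndufa1 and Cox7b. Over 446 X-linked genes above background the median difference was -0.32 for KO iPSC minus WT iPSC, against -0.01 for 13567 autosomal genes, with 73.8% of the X-linked genes below 0. In the same comparison Ndufb11 differed by -0.73, Ndufa1, an essential accessory subunit gene, by -0.39 and Cox7b by -0.05. For KO iPSC minus WT ESC the X-linked median was 0.03, and the genes differed by -0.34, 0.19 and -0.12 in that order. For WT ESC minus WT iPSC the X-linked median was -0.30, with Ndufb11 at -0.39, Ndufa1 at -0.59 and Cox7b at 0.07. The shift of the X-linked genes thus lay between WT iPSC and the other pluripotent arrays, and its part in the Ndufb11 result was not tested.

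The other called complex I genes changed less. Ndufa2, an accessory subunit gene of the peripheral arm, stood at 8.75 and 8.77 in KO iPSC, against 9.18 and 9.05 in WT iPSC and 9.30 in WT ESC, and fell by 0.42 on the log2 scale (SE 0.10, adjusted p = 0.043 in limma). Ndufv2, a core subunit gene that carries an iron-sulfur cluster of the NADH-binding module, stood at 11.24 and 11.27 in KO iPSC, against 11.51 and 11.65 in WT iPSC and 11.61 in WT ESC, and fell by 0.34 (SE 0.08, adjusted p = 0.047). Neither gene's KO arrays overlapped the WT arrays, which also held for uncalled genes with small differences, such as Ndufa12 (-0.07) and Uqcrc2 (-0.09). Ndufa5, another peripheral arm gene, rose by 0.36 (SE 0.09, adjusted p = 0.0499), with 8.59 and 8.44 in KO iPSC, against 8.23 and 8.15 in WT iPSC and 8.09 in WT ESC. Ndufa2, Ndufv2, Ndufa4 and Ndufa5 all lost their calls without either KO iPSC replicate, with the KO iPSC arrays averaged and without the WT ESC array. Without WT iPSC replicate 1 the calls of Ndufa2 and Ndufa4 were lost, and without WT iPSC replicate 2 those of Ndufv2, Ndufa4 and Ndufa5. Median centring ended those of Ndufa2 and Ndufv2, quantile normalization that of Ndufa2, and a trend and robust fitting those of Ndufa2 and Ndufa5, so that 4 of 12 settings kept the call of Ndufa2 and 6 of 12 that of each of the others.

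The catalytic core of complex I otherwise gave no call. Ndufv1, the NADH-binding subunit gene, differed by 0.11 (SE 0.07), Ndufs1 by -0.20 (SE 0.09), Ndufs7 by -0.25 (SE 0.07, adjusted p = 0.0756) and Ndufs8 by 0.01 (SE 0.10). None of the 8 assembly factor genes passed in this comparison, and their median was -0.18. Ndufaf4 came closest, with 8.87 and 8.84 in KO iPSC, against 9.26 and 9.35 in WT iPSC and 9.11 in WT ESC (-0.38, SE 0.10, adjusted p = 0.0507).

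**Figure D3:**
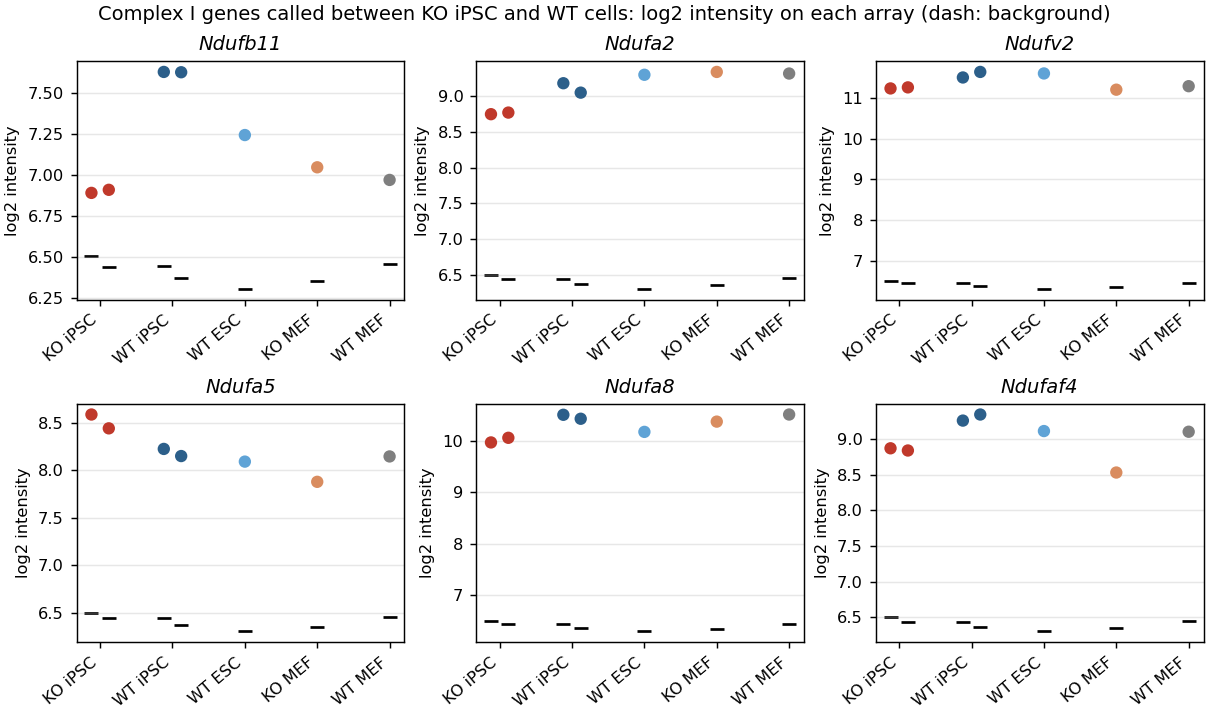
Log2 intensity on each array for the 6 complex I genes (subunits and the assembly factor Ndufaf4) called between KO iPSC and WT cells in either comparison, with groups from left to right KO iPSC, WT iPSC, WT ESC, KO MEF and WT MEF. Each point is 1 array, the dash marks its background, and the axes differ and do not start at 0. The 2 KO iPSC points lie outside the range of the WT pluripotent points in every panel, above it for Ndufa5 and below it for the others.

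No gene of complexes II, III and V or cytochrome c was called between KO iPSC and WT pluripotent cells. Sdha and Sdhb, the catalytic genes of complex II, differed by -0.14 (SE 0.11) and -0.39 (SE 0.15, adjusted p = 0.132), and the membrane anchor genes Sdhc and Sdhd by 0.06 (SE 0.13) and -0.14 (SE 0.11). In complex III, the core genes Uqcrc1 and Uqcrc2 differed by -0.03 (SE 0.09) and -0.09 (SE 0.08), the Rieske protein gene Uqcrfs1 by -0.04 (SE 0.08) and cytochrome c1 (Cyc1) by -0.18 (SE 0.08). The cytochrome c gene Cycs stood at 11.23 and 11.19 in KO iPSC, against 11.39 and 11.57 in WT iPSC and 11.40 in WT ESC (-0.24, SE 0.09, adjusted p = 0.137). In complex V, the catalytic genes Atp5a1 and Atp5b differed by -0.12 (SE 0.09) and -0.02 (SE 0.08), and the c-ring genes Atp5g1, Atp5g2 and Atp5g3 by 0.11 (SE 0.21), -0.09 (SE 0.09) and -0.05 (SE 0.09). Over the 17 complex V genes the differences ran from -0.24 to 0.26.

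KO iPSC were set against WT iPSC alone to hold the cell type constant. In this fit 0 of 89 genes were higher (6.93% of all genes tested) and 4 were lower (4.49%, against 9.55%). At an unadjusted p under 0.05, 8 were higher and 14 lower, where 6940 of all 22180 genes passed in either direction. Beside Cox7a1, Ndufb11 fell by 0.73 (SE 0.08, adjusted p = 0.00683 in limma). Ndufa8, an accessory subunit gene of the intermembrane side, stood at 9.96 and 10.05 in KO iPSC, against 10.50 and 10.42 in WT iPSC, and fell by 0.45 on the log2 scale (SE 0.09, adjusted p = 0.0309). Ndufaf4 fell by 0.45 (SE 0.09, adjusted p = 0.0289). The groups did not overlap in any of these 4 genes, but neither did they in uncalled genes with small differences, such as Ndufb3 (-0.08) and Uqcrc2 (-0.08). The calls of Ndufb11, Ndufa8 and Ndufaf4 were lost without either KO iPSC replicate, while that of Cox7a1 held. With the replicate block those of Ndufa8 and Ndufaf4 were lost too, as was that of Ndufa8 with the mean of its probe sets and that of Ndufaf4 after median centring. Among the 89 as over all genes, more were called without either WT iPSC array, and fewer were lower without either KO iPSC array. Each of these fits leaves 1 array in a group. This comparison and the previous one share the KO iPSC and WT iPSC arrays.

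The iPSC and MEF arrays were compared in a fit that also held genotype, to describe the cell types. Oxidative phosphorylation genes were higher in iPSC in 20 of 89 cases (22.47%, against 16% of all genes tested) and lower in 0 (14.7% of all genes). The shares of all genes include genes below background, while 82 of the 89 lay above it on every array. With genes below background left out, 3497 of 15168 genes were higher and 3243 lower. Against that set the 89 genes held no excess of higher genes, but still 0 lower ones. At an unadjusted p under 0.05, 34 of the 89 were higher and 1 lower, where 9027 of all 22180 genes passed in either direction. The median difference was 0.23 over the 89 genes and 0.03 over all genes, and 68 of the 89 differences were above 0. Most were small, since 7 genes (7.87%) were more than 1.5-fold apart, against 28.44% of all genes. The called genes came from complexes I (5 of 32), II (1 of 4), III (3 of 8), IV (5 of 19) and V (3 of 17) and from the assembly factors (3 of 8). The count of higher genes was 13 after median centring or without WT iPSC replicate 2, and 7 and 9 without KO iPSC replicate 1 and 2.

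The largest differences were in complex IV isoforms. Cox6b2 was 5.57-fold higher in iPSC, with 9.80 and 9.99 in KO iPSC and 10.17 and 10.31 in WT iPSC, against 7.80 in KO MEF and 7.38 in WT MEF (2.48, SE 0.19, adjusted p = 0.00119 in limma). Cox6b1 showed no such difference (-0.16, SE 0.17, adjusted p = 0.547), and its iPSC and MEF arrays overlapped. Cox7a1 was 3.98-fold higher in iPSC (1.99, SE 0.39, adjusted p = 0.015), and the size of its difference depended on genotype, as given below. The Cox7a1 difference passed in all 12 alternatives, with its extremes of 1.12 without WT MEF and 2.87 without KO MEF, as did that of Cox6b2 (2.10 to 2.86).

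Other called complex IV genes were Cox5a (0.58, SE 0.13, adjusted p = 0.0222), Ndufa4 (0.42, SE 0.11, adjusted p = 0.0438) and Cox7c. Cox7c was at least 1.14-fold higher in iPSC because both MEF arrays lay below background (fitted log2 0.55, adjusted p = 0.0461). It stood at 6.53 and 6.77 in KO iPSC and 6.76 and 6.33 in WT iPSC, against 6.07 in KO MEF and 6.02 in WT MEF, so the iPSC arrays too lay close to background. Cox7b had 2 probe sets that disagreed, 1 at -0.08 and the other at 0.88.

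Complex I was represented by Ndufa1 (0.69, SE 0.12, adjusted p = 0.0107), Ndufb5 (0.62, SE 0.11, adjusted p = 0.0101), the core genes Ndufv1 (0.51, SE 0.08, adjusted p = 0.00706) and Ndufs1 (0.50, SE 0.10, adjusted p = 0.0143), and Ndufa10 (0.30, SE 0.08, adjusted p = 0.0387). Ndufv1 stood at 10.97 and 10.98 in KO iPSC and 10.90 and 10.87 in WT iPSC, against 10.48 in KO MEF and 10.36 in WT MEF. The assembly factor genes Ndufaf3 (0.90, SE 0.21), Ndufaf6 (0.83, SE 0.13) and Ndufaf5 (0.37, SE 0.10) were higher too. Ndufaf3 stood at 9.33 and 9.33 in KO iPSC and 8.95 and 9.32 in WT iPSC, against 8.81 in KO MEF and 7.85 in WT MEF, so its 2 MEF arrays were themselves far apart.

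In the remaining complexes, Sdhd was higher by 0.40 (SE 0.11), Cyc1 by 0.55 (SE 0.09, adjusted p = 0.00874), Uqcrc1 by 0.37 (SE 0.10) and Uqcrfs1 by 0.31 (SE 0.08). The complex V genes Atp5a1 (0.48, SE 0.09, adjusted p = 0.0126), Atp5g3 (0.47, SE 0.09) and Atp5g2 (0.35, SE 0.10) passed. Atp5b, whose product forms the catalytic sites, differed by 0.15 (SE 0.08, adjusted p = 0.245). Cyc1, Ndufv1, Ndufa1, Ndufb5 and Ndufaf6 passed, beside Cox6b2 and Cox7a1, in all 12 alternatives.

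The interaction of genotype with cell type asks whether the KO minus WT difference in iPSC differs from that in MEF. It was called for 0 of 89 genes as higher (3.07% of all genes tested) and 2 as lower (5.48% of all genes). At an unadjusted p under 0.05, 6 were higher and 7 lower, where 5662 of all 22180 genes passed in either direction. Cox7a1 differed by -1.77 between KO and WT iPSC and by -0.02 between KO and WT MEF, an interaction of -1.75 (SE 0.15, adjusted p = 0.008 in limma). Ndufb11 differed by -0.73 in iPSC and 0.08 in MEF, an interaction of -0.81 (SE 0.14, adjusted p = 0.0359). Its call was lost after median centring. The median over the 446 X-linked genes differed by -0.32 in iPSC and -0.01 in MEF, and the part of this shift in the Ndufb11 interaction was not tested. Each MEF group has 1 array and is assumed to vary like the iPSC groups, and both calls were lost without either KO iPSC replicate.

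Between the 2 MEF arrays, which have no replicates and no test, 1 gene was more than 1.5-fold higher in KO MEF (6.73% of all genes) and 2 were more than 1.5-fold lower (5.37% of all genes). Ndufaf3 stood at 8.81 in KO MEF against 7.85 in WT MEF, Cycs at 11.09 against 11.85 and Atp5g1 at 6.40 against 7.15. The next largest differences were 0.57 for Ndufa6 and -0.57 for Ndufaf4. The 2 MEF arrays also differed in fibroblast markers, as given above, and in the median of 5 macrophage markers (7.03 in KO MEF against 7.95 in WT MEF). Their part in these differences was not tested.

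The distance between WT pluripotent cells was measured by setting WT ESC against WT iPSC. In this comparison 0 of 89 genes were higher and 0 lower in limma (0.0812% of all genes in each of the directions). At an unadjusted p under 0.05, 3 were higher and 7 lower, where 2704 of all 22180 genes passed in either direction. The median difference was 0.00. Ndufa4l2 stood at 9.26 in WT ESC against 7.09 and 7.99 in WT iPSC (1.72, SE 0.36, adjusted p = 0.183), and Cox7c at 7.90 against 6.76 and 6.33 (1.35, SE 0.21, adjusted p = 0.136). Cox6b2 stood at 9.53 in WT ESC against 10.17 and 10.31 in WT iPSC (-0.71, SE 0.13, adjusted p = 0.154). Leaving out either WT iPSC array left 1 array in that group, and more genes were then called, among the 89 and over all genes alike.

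Other genes that serve the same machinery were counted in 4 lists. These were chosen with earlier results of these data known, so their counts are a description. Of 35 measured assembly factor genes outside the Nduf names, 3 were higher and 8 lower than in WT pluripotent cells, with a median of -0.29, where 6.89% of all genes were higher and 8.81% lower. Of the 35, 25.71% were more than 1.5-fold apart, against 13.53% of all genes. Acad9, a complex I assembly factor, stood at 9.83 and 9.87 in KO iPSC, against 8.69 and 8.74 in WT iPSC and 8.62 in WT ESC (1.16, SE 0.08, adjusted p = 0.0013 in limma). The complex II factors Sdhaf1 (-0.91, SE 0.11) and Sdhaf4 (-0.73, SE 0.13), the complex V factor Tmem70 (-0.87, SE 0.10) and the complex I factor Foxred1 (-0.78, SE 0.08) fell.

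Of 20 measured genes of the TCA cycle and pyruvate entry, 3 were higher and 5 lower, with a median of -0.13, beside the same 6.89% and 8.81% of all genes. Pdk3, a kinase that inhibits pyruvate dehydrogenase, stood at 9.48 and 9.55 in KO iPSC, against 10.64 and 10.69 in WT iPSC and 10.63 in WT ESC (-1.14, SE 0.08, adjusted p = 0.00125). Suclg2 (-1.05, SE 0.15), a subunit gene of succinyl-CoA ligase, the kinase gene Pdk2 (-0.83, SE 0.18) and Idh3a (-0.56, SE 0.09) fell, and the pyruvate carboxylase gene Pcx rose (0.66, SE 0.09). Among 17 regulators 3 were higher and 2 lower, with a median of 0.00, and among 14 carriers 2 were higher and 3 lower, again beside 6.89% and 8.81% of all genes. Of the regulators, Tfb1m (-0.82, SE 0.16, adjusted p = 0.0261) and Tfam (-0.70, SE 0.11, adjusted p = 0.0117) fell, and Nfe2l2 (0.62, SE 0.13) and Polg (0.49, SE 0.08) rose. Ppargc1a passed as higher too (0.44, SE 0.09), but lay below background on every array. The ADP/ATP carrier gene Slc25a4 stood at 8.94 and 8.94 in KO iPSC, against 10.23 and 10.24 in WT iPSC and 10.08 in WT ESC (-1.24, SE 0.09, adjusted p = 0.00133), and the mitochondrial creatine kinase gene Ckmt1 rose by 1.61 (SE 0.16). The aspartate-glutamate carrier gene Slc25a12 (-1.10, SE 0.24) and the ADP/ATP carrier gene Slc25a5 (-0.39, SE 0.08) fell, and Slc25a13 rose (0.32, SE 0.08).

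**Figure D4:**
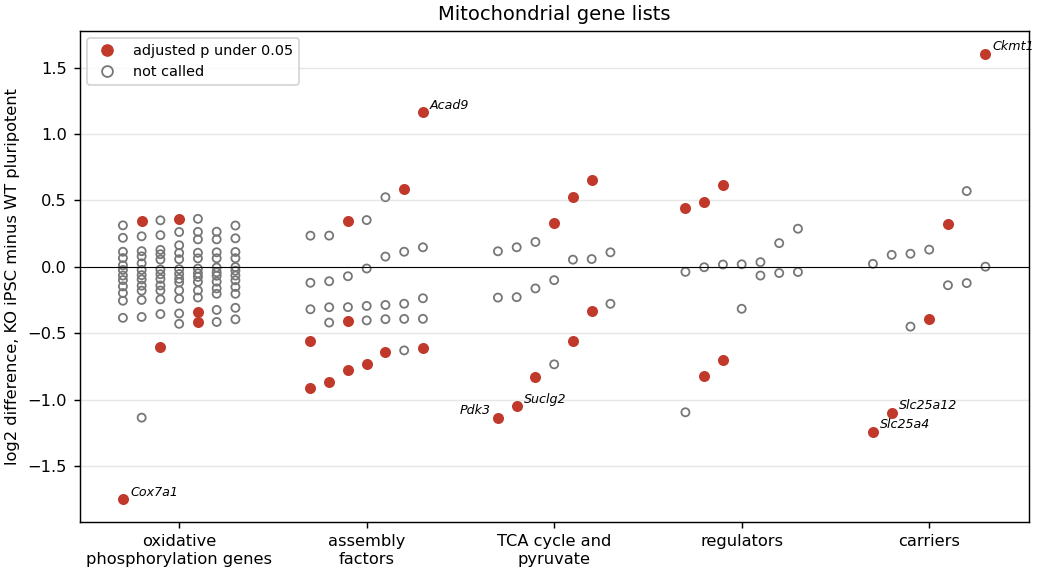
Log2 difference of KO iPSC minus WT pluripotent cells for the 89 oxidative phosphorylation genes and for 4 lists of related genes, each point 1 gene. Filled points passed an adjusted p of 0.05. The lists reach 1.61 (Ckmt1) and -1.24 (Slc25a4), and of the 89 genes Cox7a1 at -1.75 is the farthest from 0.

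In iPSC minus MEF, 9 of the 17 regulators were higher and 0 lower, with a median of 0.44, where 16% of all genes were higher and 14.7% lower. They included Esrrb (2.29, SE 0.32), an orphan receptor gene that is also a pluripotency marker, Tfb1m (1.16, SE 0.24), Tfam (1.15, SE 0.23), the mitochondrial helicase gene Twnk (1.08, SE 0.13) and Nrf1 (0.93, SE 0.10), the factor gene whose motif was searched above. Tfam and Tfb1m thus passed in both comparisons, higher in iPSC than in MEF and lower in KO iPSC than in WT pluripotent cells. Of the other lists, 6 assembly factor genes of 35 were higher and 5 lower, 4 TCA cycle genes of 20 were higher and 1 lower, and 5 carriers of 14 were higher and 1 lower. The shares of the assembly factor genes lay near those of all genes, 16% and 14.7%. Coa7 (1.22, SE 0.12), Nubpl (1.13, SE 0.20), Lrpprc (1.11, SE 0.11), Pdk1 (1.84, SE 0.26) and Slc25a13 (2.85, SE 0.40) rose, and Tmem70 (-1.40, SE 0.10) and Slc25a4 (-1.07, SE 0.26) fell.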

How the data were processed

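Per the submitters' processing notes, the deposited intensity values came from RMA in Affymetrix Expression Console 1.3.0.187. They are linear, from 9.67 to 13043, and log2 was taken here with no further normalization. Of 33649 deposited probe sets, 23521 have 1 gene symbol in the platform annotation. Per gene, the probe set with the highest mean was used, giving 22180 genes. Arrays carry no read depth, and their number (7) limits the precision.

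Differences were tested with limma 3.58.1 in R 4.3.3 (lmFit, eBayes, two-sided, Benjamini-Hochberg over all genes, adjusted p under 0.05), after a test on simulated data. KO iPSC against WT pluripotent cells used 5 arrays, iPSC against MEF 6 arrays with genotype as covariate. The contrasts of KO iPSC and of WT ESC with WT iPSC, and the interaction, used all 7 arrays, where groups of 1 array are assumed to vary like the iPSC pairs. The MEF pair has no test and is described at 1.5-fold. Where every array on the dim side lay below background, a fold is a lower bound against the mean background of those arrays ("at least"). Alternatives were median centring, quantile normalization, trend and robust fitting, 2 filters on dim genes, the mean of probe sets, 1 array left out, the KO iPSC arrays averaged and the replicate block.

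The members and lists were chosen with earlier results of these data known. Genes named are those called (up to 10 per direction), isoform families, X-linked members, core subunits and, for MEF, the 5 largest differences, with up to 5 per related list. Probe sets with several symbols (such as Ndufs6 and Cox6c) stayed out of the tests, and mitochondrially encoded subunits were not analysed here.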

Additional observations from a re-analysis of the deposited data

Results flagged for a closer look

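The KO minus WT difference of 2 oxidative phosphorylation genes differed between iPSC and MEF in a test of the interaction. For Cox7a1 the interaction was -1.75 (SE 0.15, adjusted p = 0.008 in limma over all genes), with -1.77 in iPSC and -0.02 in MEF. For Ndufb11 it was -0.81 (SE 0.14, adjusted p = 0.0359), with -0.73 in iPSC and 0.08 in MEF, and this call was lost after median centring. Ndufb11 is X-linked, and the median KO minus WT difference over 446 X-linked genes was -0.32 in iPSC and -0.01 in MEF. The part of that shift in the Ndufb11 interaction was not tested. Cox7a1 lay close above background on both MEF arrays (6.69 in KO MEF, 6.72 in WT MEF).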

How the results depend on the processing

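Cox7a1 was called in every setting that could change it for KO iPSC against WT pluripotent cells, KO iPSC against WT iPSC and iPSC against MEF. Counts of called members moved more, and causes were not tested. For KO iPSC minus WT pluripotent, 2 were lower after median centring and 4 higher after quantile normalization, and with the KO iPSC arrays averaged as 1 sample 0 were higher and 1 lower. Over all genes the split was 1529 higher and 1954 lower, against 1910 and 1620 after median centring. For KO iPSC minus WT iPSC, 1 was higher after quantile normalization, 2 higher and 7 lower with a trend and robust fitting, and 2 lower with the replicate block. The labels share only replicate numbers, and same-numbered deviations correlated at 0.0166, so the block result stands here only. For iPSC minus MEF, median centring gave 13 higher and 1 lower. For the interaction, it gave 1 lower, and a trend and robust fitting gave 1 higher. Leaving out 1 array at a time gave 0 to 1 higher and 1 to 6 lower (KO iPSC minus WT pluripotent), 0 to 9 higher and 1 to 16 lower (KO iPSC minus WT iPSC), 7 to 19 higher and 0 to 1 lower (iPSC minus MEF), 0 to 6 higher and 0 to 3 lower (WT ESC minus WT iPSC), and 0 to 3 higher and 0 to 10 lower (interaction). For the interaction, leaving out WT iPSC replicate 1 gave 2 higher and 10 lower, WT iPSC replicate 2 gave 3 and 5, and 0 were lower without either KO iPSC replicate. Cox7b in iPSC minus MEF reversed to 0.40 with the mean of its probe sets, against -0.08. A p that misses the threshold with 5 to 7 arrays does not show that a difference is absent.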

Other observations

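Probe sets that the annotation gives to several genes stayed out of the counts. The probe sets of Ndufs6 and its copy Ndufs6b, an accessory subunit of complex I, stood at 10.83 and 10.65 in KO iPSC, 10.60 and 10.66 in WT iPSC and 10.64 in WT ESC, against 10.05 in KO MEF and 9.81 in WT MEF on the brighter one. The brighter of the probe sets shared by the complex IV gene Cox6c and Gm6265 stood at 12.71 and 12.67 in KO iPSC, 12.69 and 12.78 in WT iPSC and 12.75 in WT ESC, against 12.58 in KO MEF and 12.61 in WT MEF. A probe set shared by Uqcr10 of complex III and Gm6293 stood at 8.20 and 8.21 in KO iPSC, 8.20 and 8.24 in WT iPSC and 8.45 in WT ESC, against 7.45 in KO MEF and 7.65 in WT MEF. In Ndufs6 and Uqcr10 the pluripotent arrays thus did not overlap the MEF arrays, while for Cox6c all 7 arrays lay between 12.58 and 12.78. The signals of a gene and its copy cannot be told apart on these probe sets.

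Several members had probe sets that differed in sign. In KO iPSC minus WT pluripotent cells these were Atp5d, Atp5h, Ndufa11 and Ndufa12, with differences between -0.07 and 0.22, and none of these 4 was called. Cycs was lower by all 5 of its probe sets in that comparison, from -0.68 to -0.14, where 2 of the 5 gave identical differences.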
